A study of Arabidopsis thaliana with 8 samples.

Results

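The genes described here are 45 Arabidopsis thaliana genes that write, remove or read DNA methylation or make the small RNAs that direct it. They were chosen by locus identifier from knowledge of these pathways, out of 27444 protein-coding nuclear genes of the annotation. No measured value set the choice, but earlier results of these data were known when it was made. The data were bisulfite sequencing of the above-ground tissue of 25-day-old plants from 2 recombinant inbred lines, CVL39 and CVL125, each a mosaic of the accessions Ler and Cvi. Each sample was 1 pool of 4 plants. The selected populations of both lines came from landscapes 1, 5 and 6, replicate plots in which seeds had to disperse to contribute to the next generation. They had passed 5 generations of selection there and then 2 generations without selection. The ancestral pools, 1 per line, had not been selected and entered only as the partner of each comparison.

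Each of the 6 selected pools had a list of cytosines at which it differed from the ancestral pool of its line at an unadjusted p of at most 0.05. Such a cytosine is called a differentially methylated cytosine (DMC), and its entry in 1 list is called a call. Without adjustment for the number of cytosines compared, a list can hold calls that arose by chance, and their share was not estimated. The median p of a list lay between 0.021 and 0.0286. Neither reads, nor methylation levels, nor a direction are listed, so the depth behind a call is unknown and a DMC may be a gain or a loss of methylation. A gene with 0 calls had no listed cytosine, which does not separate unchanged cytosines from cytosines with too few reads. All 3 comparisons of a line used its single ancestral pool and are not independent of each other. The lists held 7297 to 14074 nuclear DMCs, and the shortest was that of CVL125 landscape 6, which bears on every comparison below.

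In plants, cytosines are methylated in the CG, CHG and CHH contexts, where H is A, C or T. CG methylation is copied after replication by MET1 with VIM proteins, CHG methylation is maintained by CMT3 in a loop with histone H3 lysine 9 methylation, and CHH methylation depends on CMT2 and on RNA-directed DNA methylation (RdDM). In RdDM, RNA polymerase IV and RDR2 make double-stranded RNA, DCL3 cuts it into small RNAs, and AGO4 or AGO6 carries these to transcripts of RNA polymerase V, where DRM2 methylates the DNA. DNA glycosylases of the ROS1 family remove methylated cytosines. Many housekeeping genes, silencing genes among them, also carry CG methylation in their own bodies.

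The sequences around the positions on which the results turn are given first, 25 bases each from the reference genome, read 5′ to 3′ on the strand of the listed cytosine with the CG dinucleotide in capitals. They are the coding positions listed in all 3 landscapes of a line, and a CG site of IBM1 that was listed on one strand or the other in every CVL39 landscape. The windows come from RefSeq TAIR10.1 at chr3:14758989-14759013 (minus strand), chr3:14759201-14759225 (minus), chr1:17889116-17889140 (plus), chr1:30030-30054 (minus) and chr3:2429098-2429122 (minus).
CLSY1 codon 292: ttcagccggattCGaaggatggatg
CLSY1 codon 221: ggatgaagattgCGaaggctctagt
AGO1 codon 566: ggaggcagtataCGagcctcaacag
DCL1 codon 1654: gggcgcttgaacCGtgacgaaggta
IBM1 codon 681: catcagacatgtCGcagtggagctt

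A second set shows where at least 3 distinct positions of a member lay within 25 bases of each other. Here capitals mark the listed cytosines, and in the CG context the whole CG site, which could be listed on either strand. In NRPD1 the middle site was listed on the plus strand alone and the first printed site on both strands, as was the first printed site of DML2. The windows are chr2:15312942-15312968 (minus strand), chr1:23355337-23355363 (minus), chr3:3084435-3084462 (minus), chr5:1200949-1200975 (minus) and chr1:21417546-21417573 (plus).
ROS1 exon 4: ctctCGgataagatagacaCGcCGatc
NRPD1 exon 20: cactCGagtcCGgtggtttctcCGaaa
DML2 exon 10: caggttgacaCGaatgtCGgacgcatag
SPT5L exon 18: gcctCcgtCatCctttttaCCCCacga
VIM1 exon 1: ttcatcatCctcctCaacaCctttacca

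Of the 45 genes, 38 had a DMC in the gene body in at least 1 list, a share of 84.4%, against 37.6% of all protein-coding genes. They are long genes, with a median length of 5188 bp against 2077 bp for the other protein-coding genes, and 30 of them fall in the longest decile of genes. Among other genes of the same length deciles the share was 70.8%, and among other genes within 10% of each length it was 73.7%. In CVL39, 28 genes had a DMC (26.2% of all genes, 53.5% at like length), and in CVL125, 29 did (25.0% of all genes, 51.6% at like length). Both lines had a DMC in 19 of the 45 genes (13.5% of all genes, 34.3% at like length). CVL39 alone had one in 9 genes and CVL125 alone in 10. Of all 27444 genes, 7178 had a DMC in CVL39, 6849 in CVL125 and 3695 in both, so calls in 1 line alone were common among all genes. Most of the distance between these genes and the average gene was thus also found in other genes of their length.

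Of the 7 genes without a DMC in any list, DRM1 (AT5G15380) is a relative of the de novo methyltransferase DRM2, DML3 (AT4G34060) is a ROS1-family glycosylase, SUVH5 (AT2G35160) is a histone H3 lysine 9 methyltransferase, SUVH2 (AT2G33290) helps to bring RNA polymerase V to methylated DNA, and VIM2 (AT1G66050), AGO9 (AT5G21150) and IDN2 (AT3G48670) are a methyl-CG binding protein, a small RNA carrier and a double-stranded RNA binding protein of RdDM. None of these 7 had a DMC in its flanks of 1 kb either. Among other genes within 10% of their length, the share without a body DMC lay between 21.0% for DML3 and 41.4% for IDN2.

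**Figure D1:**
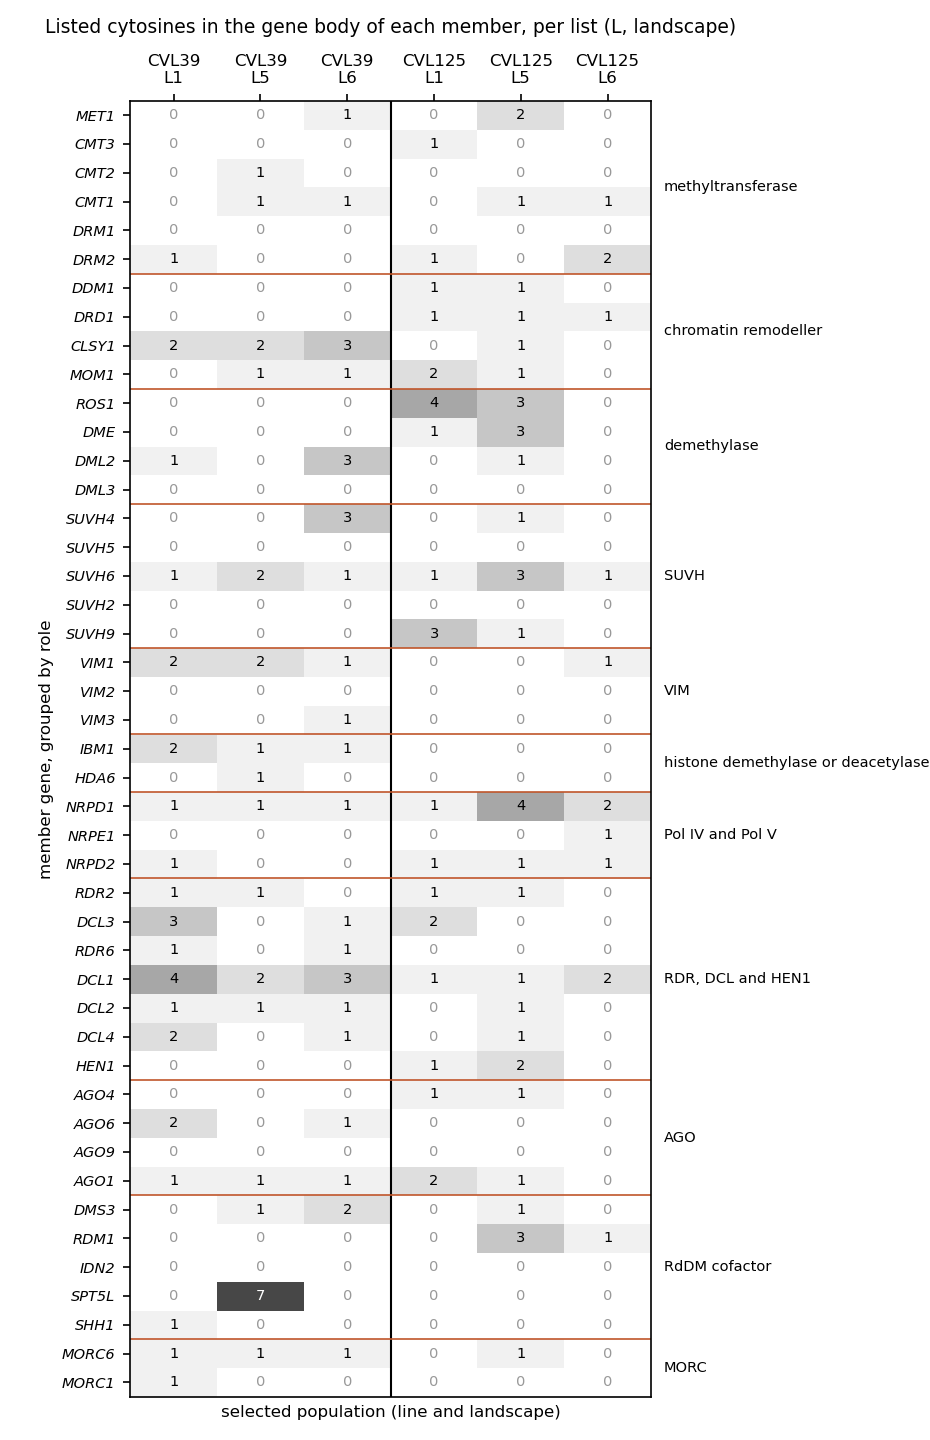
Number of listed cytosines in the gene body of each of the 45 genes (rows, grouped by role) in each of the 6 lists (columns, CVL39 left of CVL125; L, landscape). Darker cells hold more; the darkest is SPT5L with 7 in CVL39 landscape 5, and the 7 genes with 0 in every list run as pale rows.

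The 45 gene bodies held 159 calls at 127 distinct positions. By list there were 29, 26 and 29 calls in CVL39 landscapes 1, 5 and 6, and 25, 37 and 13 in CVL125 landscapes 1, 5 and 6. CVL125 landscape 6 stood lowest and CVL125 landscape 5 highest, so that the lists of CVL125 enclosed those of CVL39. CVL39 averaged 28 ± 1.73 calls and CVL125 25.0 ± 12.0 (SD over 3 populations of each line), a difference within the spread of CVL125. A call was found in 19, 16 and 20 genes in CVL39 landscapes 1, 5 and 6 (13.0%, 14.9% and 15.1% of all genes) and in 17, 24 and 10 genes in CVL125 (14.3%, 17.0% and 8.17% of all genes). In the same order, these were 42.2%, 35.6% and 44.4% of the members in CVL39, against 29.3%, 33.05% and 33.4% at like length. In CVL125 they were 37.8%, 53.3% and 22.2%, against 30.7%, 37.1% and 18.2% at like length. A median member had 4 calls over the 6 lists and a median other gene, of any length, had 0.

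Of the 159 calls, 130 were in the CG context, 11 in CHG and 18 in CHH. A CG was listed in 33 of the 45 genes, against 32.3% of all genes and 66.5% at like length. CG calls numbered 25, 16 and 24 in the CVL39 lists and 23, 33 and 9 in the CVL125 lists, with the same mean of 21.7 in both lines (SD 4.93 in CVL39 and 12.1 in CVL125, n = 3 each). Other genes of the same length deciles would hold 16.7, 19.3 and 19.3 CG calls in the CVL39 lists and 18.0, 23.6 and 8.58 in the CVL125 lists. The ratio of the members' count to that of like-length genes averaged 1.19 ± 0.337 over the CVL39 populations and 1.24 ± 0.179 over those of CVL125 (SD, 3 of each). It was below 1 in CVL39 landscape 5, at 0.829, and above 1 in the other 5 lists. With genes within 10% of each length the means were 1.09 in CVL39 and 1.18 in CVL125. The excess over like-length genes was therefore smaller than the spread between the populations of CVL39, and little larger than that of CVL125.

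**Figure D2:**
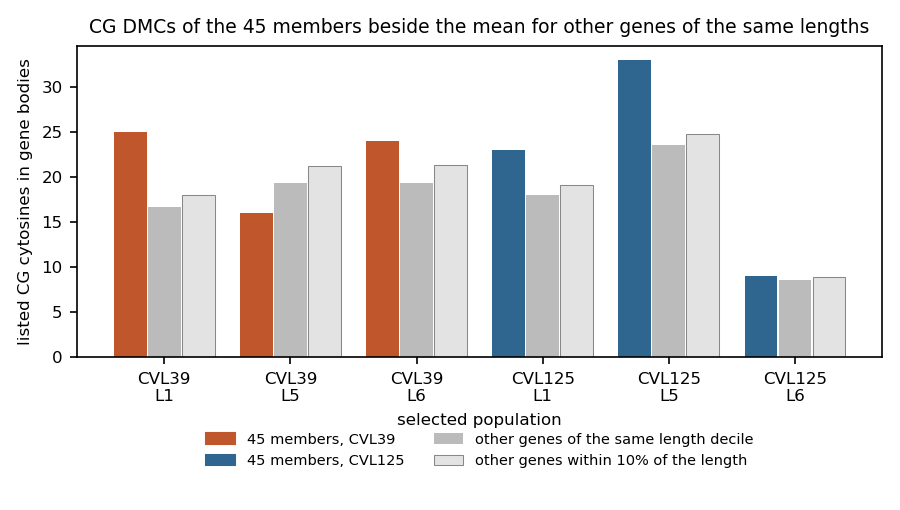
Listed CG cytosines in the bodies of the 45 genes (coloured bars, CVL39 left of CVL125) beside the mean count of other genes of the same length deciles and of other genes within 10% of each length (grey bars), for each list. The coloured bar is the taller one in every list but CVL39 landscape 5, where it stands at 16 against 19.3 and 21.2.

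CG DMCs of these genes lay in coding exons for 90 of 100 distinct positions, while coding sequence holds 69.0% of the CG cytosines in the same gene bodies. Other genes of the longest decile showed the same direction, with 86.4% of the positions against 63.0% of the cytosines. When gene bodies were divided into 3 equal parts in the direction of transcription, the first part held 19.2% of the members' CG calls, the middle part 39.2% and the last part 41.5%, against 13.6%, 39.8% and 46.6% in other genes. The share in the first part was 12.3% in CVL39 (8 of 65 calls) and 26.2% in CVL125 (17 of 65 calls). In other genes it was 13.9% in CVL39 and 13.2% in CVL125. Calls can lie close together, as at 3 positions within 19 bases of ROS1 in that part. The difference between the lines was not tested.

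Non-CG calls were few. A CHG position was listed in 10 of the 45 genes, against 4.47% of all genes and 7.52% at like length, which corresponds to 3.38 genes. Each of the 10 (CMT1, ROS1, SUVH4, SUVH9, IBM1, NRPE1, AGO6, DMS3, RDM1 and SPT5L) had a single CHG position, and that of RDM1 alone was listed in more than 1 list. The positions in DMS3 and RDM1 also lie in the body of a neighbouring gene. Apart from the call of RDM1 in CVL125 landscape 5, no CHG call in these gene bodies met the stricter p of 0.01. The CHG share at like length was not computed at that p, so the CHG excess rests on calls at the reported p. A CHH position was listed in 7 genes (CMT2, CMT1, DDM1, VIM1, VIM3, NRPD1 and SPT5L), against 8.07% of all genes and 13.8%, or 6.22 genes, at like length. No body position of the 45 genes lay in a run of CT dinucleotides, which hold many CHH DMCs elsewhere in these lists.

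The plot of shares by region and context sets the members beside like-length genes, all other genes and a second list of silencing genes described at the end.

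**Figure D3:**
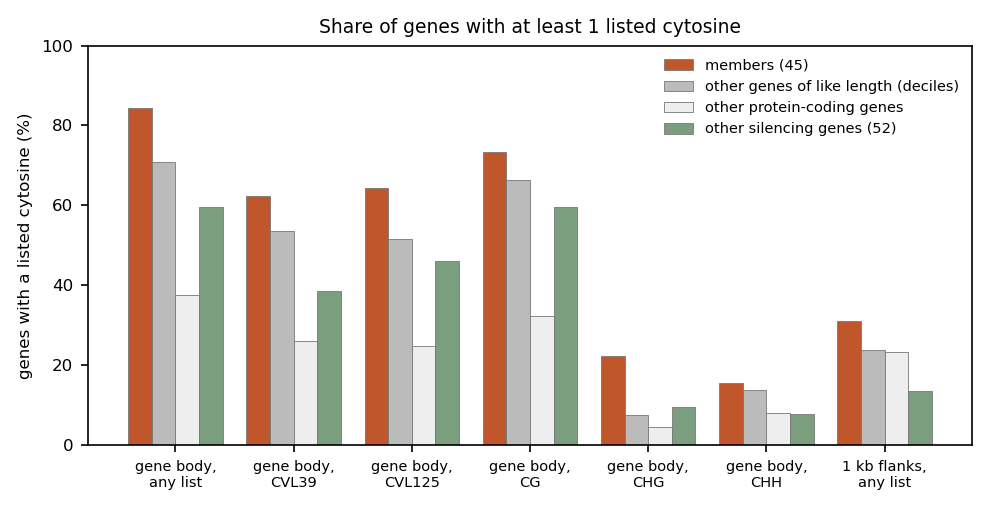
Percentage of genes with at least 1 listed cytosine, for the 45 members, other genes of the same length deciles, all other protein-coding genes and 52 further silencing genes. Members stand above like-length genes in every class, by 84.4% against 70.8% for the gene body in any list and by 22.2% against 7.52% for CHG. Apart from a call of RDM1, no CHG call of the members met the stricter p of 0.01.

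Of the DNA methyltransferases, 5 of 6 genes were called (37.6% of all genes, 72.0% at the length of these 6), with 13 calls in all. MET1 (AT5G49160, chr5:19932114-19938470), which maintains CG methylation, had 0, 0 and 1 calls in CVL39 landscapes 1, 5 and 6 and 0, 2 and 0 in CVL125. The CVL39 position lies in exon 11 at codon 1452, and those of CVL125 in exon 2 at codons 209 and 412, all CG. CMT3 (AT1G69770, chr1:26248118-26253687), the CHG methyltransferase, had 1 call, a CG in exon 20 in CVL125 landscape 1, and CMT2 (AT4G19020, chr4:10414428-10421265), which acts on CHH and CHG in heterochromatin, had 1 call, a CHH in intron 7 in CVL39 landscape 5. Like-length genes had means of 2.93 calls for CMT3, 3.71 for CMT2 and 3.50 for MET1, all above the counts of these genes, and of 2.88 for CMT1 and 2.22 for DRM2, which had 4 calls each. CMT1 (AT1G80740, chr1:30342394-30347048), a relative of CMT3, was listed at 4 positions, with 0, 1 and 1 calls in CVL39 and 0, 1 and 1 in CVL125. None of its positions was a CG: 3 were CHH and 1 was CHG. DRM2 (AT5G14620, chr5:4715105-4718704), the catalytic end of RdDM, had 1, 0 and 0 calls in CVL39 and 1, 0 and 2 in CVL125, and its CG at codon 592 in exon 10 was listed in CVL125 landscapes 1 and 6.

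Of the chromatin remodellers, 4 of 4 were called (37.6% of all genes, 73.3% at their length), with 18 calls in all. CLSY1 (AT3G42670, chr3:14755798-14760629), a remodeller that helps RNA polymerase IV to its targets, had 2, 2 and 3 calls in CVL39 and 0, 1 and 0 in CVL125, so that the lines did not overlap. Its positions all lie in exon 3, between codons 217 and 292 on the minus strand of chromosome 3 from 14759001 to 14759226. The CG positions at codons 292 and 221, printed above, were each listed in all 3 CVL39 landscapes and in no CVL125 list, and both also met the stricter p of 0.01 in all 3. The single CVL125 call was at another CG between them, at codon 271. Of other genes within 10% of the length of CLSY1, 9.05% had as many as its 8 calls.

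DRD1 (AT2G16390), the remodeller that opens chromatin for RNA polymerase V, showed the opposite arrangement, with 0 calls in each CVL39 list and 1 in each CVL125 list. The CG at codon 310 was listed in CVL125 landscapes 1 and 5 and the CG at codon 757 in landscape 6, so no single position recurred in all 3. DDM1 (AT5G66750), needed for methylation of heterochromatin, had 1 call in each of CVL125 landscapes 1 and 5 and none elsewhere. MOM1 (AT1G08060, chr1:2501704-2511084), a silencing factor that acts largely without loss of methylation, had 0, 1 and 1 calls in CVL39 and 2, 1 and 0 in CVL125. Its CG at codon 1952 was listed in landscape 5 of both lines, one of 2 positions in all 45 genes that were listed in both lines.

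Of the DNA glycosylases, 3 of 4 were called (37.6% of all genes, 77.2% at their length), with 16 calls against 13.5 at like length. ROS1 and DME were called in CVL125 alone. ROS1 (AT2G36490, chr2:15307907-15314807), which removes methylation throughout the plant, had 0 calls in each CVL39 list and 4, 3 and 0 in CVL125 landscapes 1, 5 and 6. The CG cytosines at codons 380 and 381 in exon 4 were listed in both landscapes 1 and 5, at p of 0.01 or less each time, and another at codon 375 was listed in landscape 1. These 3 lie within 19 bases. Of all genes, 1.56% had 3 or more DMCs within 25 bases in 1 list, and the share at like length was not computed. The promoter of ROS1 holds a methylated element that is known to tune its transcription, but no cytosine within 1 kb upstream of ROS1 was listed in any population. DME (AT5G04560), known from the central cell of the female gametophyte, had 0 calls in CVL39 and 1, 3 and 0 in CVL125, and a CG in its intron 15 was listed in landscapes 1 and 5. In both genes landscape 6 of CVL125 matched the CVL39 lists at 0, so the lines overlapped. DML2 (AT3G10010), a glycosylase of the same family, had 1, 0 and 3 calls in CVL39 and 0, 1 and 0 in CVL125. The cytosines of 1 CG site of DML2, at codon 904, were listed on opposite strands in CVL39 landscape 6 and CVL125 landscape 5.

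Among the histone methyltransferases and related SUVH genes, 3 of 5 were called, against 37.6% of all genes and 66.4% at their length. SUVH6 (AT2G22740, chr2:9662638-9667038) was called in every list, with 1, 2 and 1 calls in CVL39 and 1, 3 and 1 in CVL125, at 8 distinct CG positions. Its body overlaps 2 other annotated genes, and every one of these positions also lies in a neighbouring gene, so the calls cannot be assigned to SUVH6 alone. SUVH4 (AT5G13960), the main partner of CMT3, had 0, 0 and 3 calls in CVL39 and 0, 1 and 0 in CVL125. SUVH9 (AT4G13460), which with SUVH2 recruits RNA polymerase V, had 0 calls in CVL39 and 3, 1 and 0 in CVL125, and its CG at codon 599 was listed in landscapes 1 and 5.

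Among the VIM genes, 2 of 3 were called (37.6% of all genes, 61.8% at their length). VIM1 (AT1G57820, chr1:21413981-21418115), which binds half-methylated CG sites for MET1, had 2, 2 and 1 calls in CVL39 and 0, 0 and 1 in CVL125. Of its 5 positions, 4 were CHH cytosines of exon 1 between codons 113 and 129, on the plus strand of chromosome 1 from 21417518 to 21417565. One of these, at codon 113, was listed in CVL39 landscapes 1 and 5. VIM3 (AT5G39550), a close relative, had 1 call, also a CHH of exon 1, in CVL39 landscape 6. The VIM genes are similar in sequence, and whether reads of one were aligned to another was not tested.

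IBM1 (AT3G07610, chr3:2425884-2433113), a histone H3 lysine 9 demethylase that keeps CHG methylation out of genes, had 2, 1 and 1 calls in CVL39 and 0 in each CVL125 list. At codons 680 and 681 of exon 7 the 2 cytosines of one CG site were listed, the minus strand in CVL39 landscapes 1 and 6 and the plus strand in landscape 5. Full-length IBM1 transcripts are known to depend on heterochromatic methylation in a long intron. A single cytosine of an intron was listed, a CHG in intron 8 in CVL39 landscape 1, at 4516 bp from the gene's start. HDA6 (AT5G63110), a histone deacetylase needed for silencing, had 1 call, a CG in exon 4 in CVL39 landscape 5. IBM1 and HDA6, 2 of 2 genes of this group, were thus called, against 37.6% of all genes and 65.6% at their length.

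Among the RNA polymerase subunits, 3 of 3 were called (37.6% of all genes, 77.2% at their length), and they differed widely in number of calls. NRPD1 (AT1G63020, chr1:23354685-23362589), the largest subunit of RNA polymerase IV, was called in every list, with 1, 1 and 1 calls in CVL39 and 1, 4 and 2 in CVL125. Of other genes within 10% of its length, 8.94% had as many as its 10 calls. Its positions gather at the 3′ end, where 6 of 9 lie in exons 18 and 20. The CG at codon 1401 was listed in CVL39 landscapes 5 and 6, whereas the CVL125 calls of exon 20 lay at 3 CG sites between codons 1444 and 1450. NRPE1 (AT2G40030, chr2:16714460-16723718), the largest subunit of RNA polymerase V and a gene of 9259 bp, had a single call, a CHG in CVL125 landscape 6, where genes of like length had a mean of 4.90. NRPD2 (AT3G23780, chr3:8567572-8574209), the second-largest subunit that both polymerases share, had 1, 0 and 0 calls in CVL39 and 1, 1 and 1 in CVL125. All 3 CVL125 calls were the same CG in its 3′ untranslated region, at position 8567827 of chromosome 3, and none of them met the stricter p of 0.01.

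Of the genes for small RNA production, 7 of 7 were called (37.6% of all genes, 75.0% at their length). They held 36 calls, 23 in CVL39 and 13 in CVL125, where like-length genes would hold 22.6. DCL1 (AT1G01040, chr1:23121-31227), which makes microRNAs, led all 45 genes with 13 calls, 4, 2 and 3 in CVL39 and 1, 1 and 2 in CVL125, at 9 CG positions in coding exons. Of other genes of like length, 5.24% had as many. The lists of DCL1 meet at 2 calls, so the lines overlapped (exact permutation p = 0.2, two-sided). The CG at codon 1654 in exon 17 was listed in all 3 CVL125 landscapes and in no CVL39 list. In CVL39 the CG at codon 1558 of the same exon was listed in landscapes 5 and 6, and the CG site at codon 840 was listed in every landscape on one strand or the other. Of the genes of the RdDM branch, RDR2 (AT4G11130) had 1, 1 and 0 calls in CVL39 and 1, 1 and 0 in CVL125, and DCL3 (AT3G43920, chr3:15753387-15760859) had 3, 0 and 1 in CVL39 and 2, 0 and 0 in CVL125.

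RDR6, DCL2 and DCL4 form a branch that silences transgenes and viruses. RDR6 (AT3G49500) had 1, 0 and 1 calls in CVL39, both at the CG of codon 928, and 0 in CVL125. DCL2 (AT3G03300) had 1, 1 and 1 in CVL39 and 0, 1 and 0 in CVL125, and DCL4 (AT5G20320) had 2, 0 and 1 in CVL39 and 0, 1 and 0 in CVL125. The lines overlapped in all 3 genes (exact permutation p = 0.4 for RDR6 and DCL2 and 0.7 for DCL4, two-sided). In DCL2 and DCL4, 1 CG each was listed in CVL39 landscapes 1 and 6, at codons 1205 and 735. HEN1 (AT4G20910), which methylates small RNAs at their ends, had 0 calls in CVL39 and 1, 2 and 0 in CVL125.

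Of the Argonaute genes, 3 of 4 were called (37.6% of all genes, 77.2% at their length). AGO1 (AT1G48410, chr1:17885633-17892632), the carrier of microRNAs, had 1, 1 and 1 calls in CVL39 and 2, 1 and 0 in CVL125. The CG at codon 566 in exon 10 gave all 3 CVL39 calls and the call of CVL125 landscape 5, each at p of 0.01 or less, which made it the most often listed position of the 45 genes. AGO4 (AT2G27040) had 0 calls in CVL39 and 1, 1 and 0 in CVL125, and AGO6 (AT2G32940) had 2, 0 and 1 in CVL39 and 0 in CVL125, each at positions listed once.

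The RdDM cofactors held the densest group, and 4 of 5 were called (37.6% of all genes, 60.0% at their length). SPT5L (AT5G04290, chr5:1195969-1202936), a protein that binds AGO4 along RNA polymerase V transcripts, had 0, 7 and 0 calls in CVL39 and 0 in each CVL125 list. All 7 were non-CG cytosines of the minus strand within 19 bases of exon 18, codons 954 to 960, and 0.233% of all genes had 7 or more DMCs within 25 bases in 1 list. No other list held a cytosine of the SPT5L gene body, so the group rests on CVL39 landscape 5 alone. DMS3 (AT3G49250), which forms a complex with RDM1 and DRD1, had 0, 1 and 2 calls in CVL39 and 0, 1 and 0 in CVL125. RDM1 (AT3G22680) had 0 calls in each CVL39 list and 0, 3 and 1 in CVL125. All 3 positions of RDM1 lie in a 5′ untranslated exon that overlaps a neighbouring gene. SHH1 (AT1G15215), which reads histone H3 lysine 9 methylation for RNA polymerase IV, had 1 call, in CVL39 landscape 1. MORC6 (AT1G19100, chr1:6594883-6601355), an ATPase that compacts chromatin, had 1, 1 and 1 calls in CVL39 and 0, 1 and 0 in CVL125, at 4 different CG positions. MORC1 (AT4G36290), its relative, had 1 call, in CVL39 landscape 1. The MORC genes were thus called in 2 of 2 cases, against 37.6% of all genes and 69.5% at their length.

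**Figure D4:**
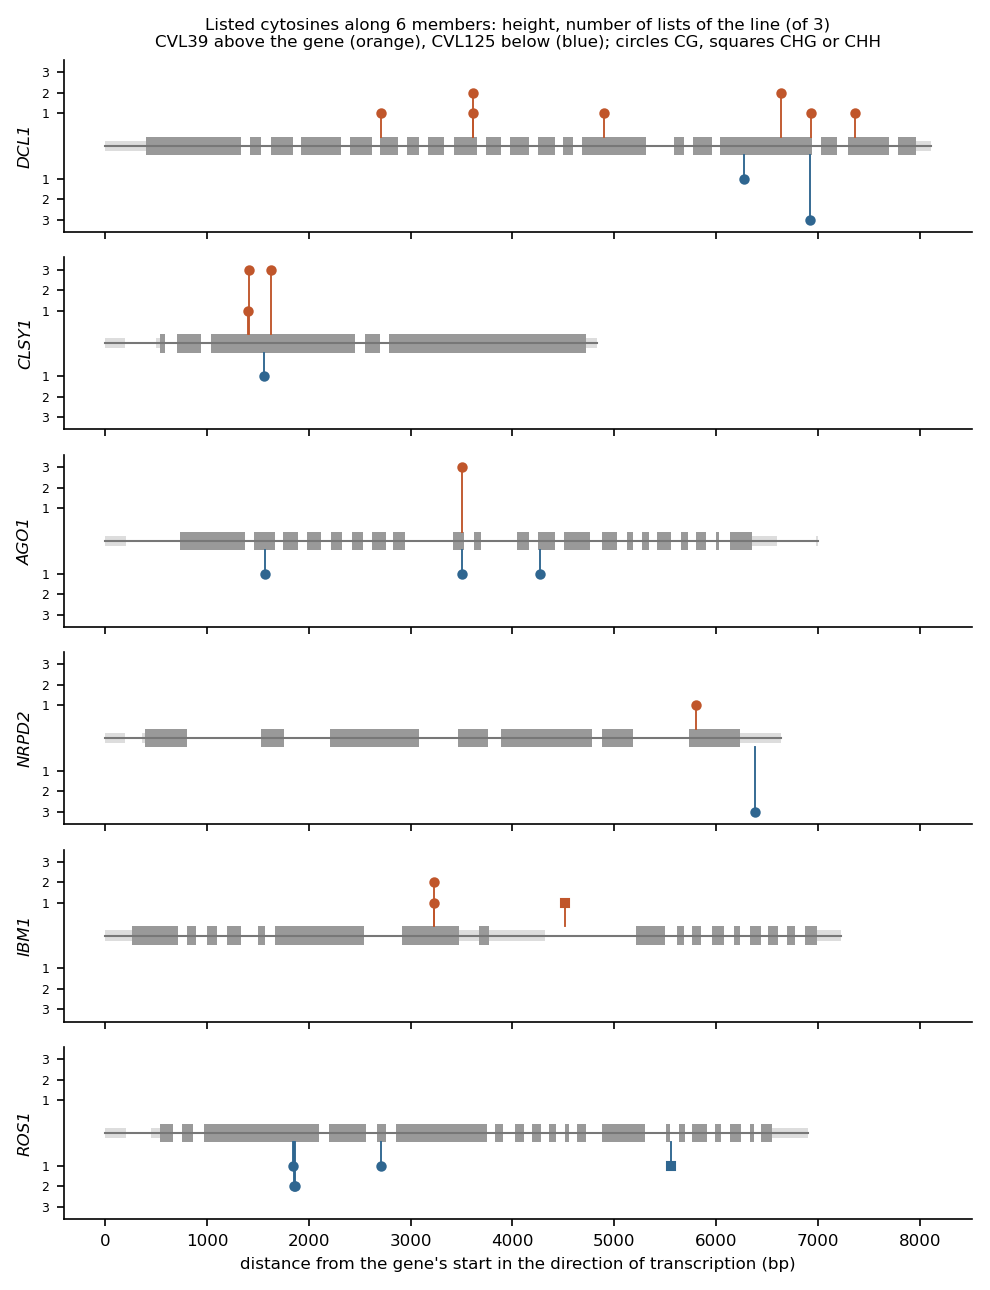
Listed cytosines along 6 genes, by distance from the gene's start in the direction of transcription (bp); wide boxes are coding sequence and narrow boxes other exons of any annotated transcript. The height of each stem is the number of lists of a line that held the position (1 to 3), CVL39 above and CVL125 below; stems of 3 stand in CLSY1 and AGO1 for CVL39 and in DCL1 and NRPD2 for CVL125.

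Recurrence within a line was compared side by side, since its lists share an ancestral pool. Of the 127 positions, 101 were in a single list and 5 were in all 3 lists of a line. The genes with such a position were 2 in CVL39 (CLSY1 and AGO1; 1.83% of all genes, 4.77% at like length) and 2 in CVL125 (NRPD2 and DCL1; 1.24% of all genes, 2.74% at like length). These shares, 4.44% of the 45 genes in each line, were close to or somewhat above those of like-length genes and rest on 2 genes each. At the stricter p of 0.01, CLSY1 and AGO1 had such a position in CVL39 (0.711% of all genes, 2.19% at like length). In CVL125, 0 genes had one (0.288% of all genes, 0.704% at like length). Counting the strands of a CG site as one added IBM1 and DCL1 in CVL39. A position in at least 2 lists of the line was found in 13 genes in CVL39 and 9 in CVL125, against 8.11% and 7.58% of all genes, or 8.46 and 7.53 genes at like length. Of the 25 positions listed at least 2 times in a line, 23 were CG. Whatever the position, 9 genes were called in every CVL39 list (SUVH6, VIM1, IBM1, NRPD1, CLSY1, MORC6, DCL1, DCL2 and AGO1), against 4.45% of all genes and 12.6% at like length. In every CVL125 list 5 were (SUVH6, NRPD1, NRPD2, DRD1 and DCL1), against 3.17% of all genes and 8.03% at like length. SUVH6, NRPD1 and DCL1 were called in all 6 lists, as were 0.696% of all genes and 2.42% of those of like length. When positions that lie in more than 1 gene body were left out, NRPD1 and DCL1 were (0.634% of all genes, 2.19% at like length).

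Between the lines, counts did not overlap for 3 genes. CLSY1, with 2.33 ± 0.577 calls in CVL39 and 0.333 ± 0.577 in CVL125, and IBM1, with 1.33 ± 0.577 in CVL39 and 0 in CVL125, were higher in CVL39 (SD, n = 3 each), as were 1.7% of all genes and 3.91% at like length. DRD1, with 0 in CVL39 and 1 in each CVL125 list, was higher in CVL125, as were 1.22% of all genes and 2.28% at like length. For each of the 3 the two-sided exact permutation test gave p = 0.1, the smallest that 3 against 3 populations allow, and an adjusted p of 1 over the 10332 genes with a call, so no gene passed 0.05. Of these 10332 genes, 7.76% reached that smallest p. Without CVL125 landscape 6 the genes that did not overlap numbered 4 with CVL39 higher (CLSY1, IBM1, VIM1 and DCL1; 1.91% of all genes) and 7 with CVL125 higher (DRD1, DDM1, ROS1, DME, SUVH9, AGO4 and HEN1; 4.10% of all genes). With both lists of a landscape left out, 2, 9 and 4 genes were higher in CVL39 without landscapes 1, 5 and 6. The shares were 4.02%, 3.96% and 3.25% of all genes, and 8.77%, 9.36% and 6.90% at like length. In the same order, 4, 1 and 7 genes were higher in CVL125. Their shares were 2.20%, 2.12% and 4.80% of all genes, and 4.15%, 4.23% and 9.92% at like length. At the stricter p of 0.01, CLSY1 and DCL1 were higher in CVL39 (0.729% of all genes, 2.02% at like length). Higher in CVL125 were 0 genes (0.346% of all genes, 0.770% at like length). The count thus depended on single lists, and CLSY1 alone held under both the reported and the stricter p. Each line has its own ancestral pool, and a difference between those pools cannot be told apart from one between the lines.

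Within 1 kb of the gene bodies, 14 of the 45 genes had a DMC, against 23.2% of all genes and 23.7% at like length. Upstream DMCs were found for 5 genes (10.4% of all genes) and downstream DMCs for 9 (14.9% of all genes). Of the 22 flank positions, 19 lie in the body of a neighbouring gene, among them all 6 downstream of DMS3. The other 3 were 2 CHH cytosines upstream of NRPD2 in CVL39 landscape 6 and a CG upstream of DCL4 in CVL39 landscape 1. Upstream of the remaining members, a DMC outside any neighbouring gene was thus not listed, and neither flank of ROS1 or IBM1 held one. The count was 9 without landscape 5 (18.3% of all genes), 5 at the stricter p of 0.01 (10.8%), and 2 with flanks of 500 bp (10.2%).

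A second list of 52 genes of the same pathways was counted in the same way, but no share at like length was computed for it. Its shares are set beside all genes only, and gene length was not taken into account. Of these, 31 had a body DMC (59.6%, against 37.6% of all genes), 20 in CVL39 (26.2% of all genes) and 24 in CVL125 (25.0% of all genes). A DMC within 1 kb was found for 7 (13.5%, against 23.2% of all genes). ROS3, an RNA binding protein of the ROS1 pathway, led with 1, 7 and 1 calls in CVL39 and 0, 13 and 1 in CVL125. AGO7, a carrier of a microRNA that starts trans-acting small RNA production, had 0, 3 and 2 in CVL39 and 7, 7 and 1 in CVL125. A position in all 3 CVL125 lists was found in 3 of these genes, CLSY2, LDL2 and AGO7 (1.24% of all genes), and a position in all 3 CVL39 lists in 0 (1.83% of all genes). Counts that did not overlap between the lines were found in 0 of the 52 genes, against 1.7% of all genes with CVL39 higher and 1.22% with CVL125 higher.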

How the data were processed

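Pools were bisulfite sequenced on the SOLiD platform, and the authors used SOCS, with at most 4 mismatches per read, and parental sequences (Ler and Cvi) derived from TAIR10. The deposited lists give chromosome, strand, position and unadjusted p-value of each cytosine that differed between a selected pool and the ancestral pool of its line. The test and the coverage minimum are not given in the sources used here. Deposited p-values were used only as membership of a list, or at the stricter threshold of 0.01.

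Positions, counted from 0 in the lists, were printed counted from 1 and placed on TAIR10.1 with its RefSeq annotation. Gene spans of that annotation can be longer than those of TAIR10 and overlap. Of the positions listed in member bodies, 3 were no cytosine of the stated strand and were left out. Exon and codon numbers follow the transcript with the longest coding sequence. Sequence differences of Ler and Cvi from the reference were not considered.

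Calls were counted per gene, context and list in Python 3.11.15 (pandas 2.3.3, numpy 2.4.6). Like-length values are means over other protein-coding genes of the same length decile, or within 10% of the length. The population was the replicate. Between lines each gene was compared by a two-sided exact permutation test with Benjamini-Hochberg adjustment over all genes with a call. The counting was tested on simulated data. Described in full were the genes with a position in all 3 landscapes of a line, the 10 with most distinct positions, MET1, CMT3, CMT2, DRM2 and NRPE1 as genes the study names, and ROS1 and IBM1; other genes are given by their counts. The members and lists were chosen with earlier results of these data known. Landscape numbers shared by the lines were not taken as pairs: deviations of same-numbered lists correlated at -0.0058, 0.0251 and 0.0446 over genes. Each population gave 1 pool, and the 3 lists of a line share its 1 ancestral pool. The p-values thus rest on the spread between lists and do not cover variation of the ancestral pools. Alternatives were a p of 0.01, leaving out each landscape, exons only, strands of a site counted once, other flanks and no CT runs.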

Additional observations from a re-analysis of the deposited data

How the results depend on the processing

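Of the recomputed values, 110 stayed within 1.5 times the reported count or within the spread between populations, and 22 moved. The ratio of CG calls to like-length genes in each line and the share of genes with a body DMC stayed above like-length genes under every alternative run for them. At p of 0.01 or less, CVL39 had 16 genes with a body DMC (13.1% of all genes, 30.7% at like length) and a mean of 12.3 CG calls per list. CVL125 had 17 genes with a body DMC (12.6% of all genes, 29.95% at like length) and a mean of 10 CG calls per list. It had 0 genes with a recurring position and 0 that were higher than in CVL39, and 5 genes had a flank DMC. With the strands of a site counted once, 4 genes recurred in CVL39. Genes with a flank DMC numbered 2 with flanks of 500 bp, 25 with flanks of 2 kb and 2 outside other genes. Leaving out each landscape in turn, or CVL125 landscape 6 alone (chosen after seeing the data), gave 2 to 8 recurring genes in CVL39 and 3 to 7 in CVL125, where the remaining lists alone had to agree, 9 to 14 genes with a flank DMC, 2 to 9 genes higher in CVL39 and 1 to 7 higher in CVL125. Without CVL125 landscape 6 alone, these were 2, 7, 14, 4 and 7. Shares over all genes are not given here for recurring genes with lists left out or for flanks of 2 kb. With the landscape number as a block, the sign of the difference was the same in every landscape for 3 genes in CVL39's favour (CLSY1, IBM1 and DCL1). The share over all genes was 2.09%. For CVL125 it was so for 1 gene (DRD1), beside 1.45% of all genes. The smallest sign-flip p is 0.25 in this setting. Depth is unknown, so genes without calls may have been too thinly covered to give one.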
